A study of Homo sapiens with 30 samples.

Results

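The extrinsic death pathway was followed here through 10 genes, taken by their exact symbols from the 21112 genes in each deposited table: the receptors FAS, TNFRSF10A and TNFRSF10B, the adaptor FADD, the kinase RIPK1, the initiator caspases CASP8 and CASP10, the c-FLIP gene CFLAR, and the inhibitor of apoptosis genes BIRC2 and XIAP. Their levels were compared between 4 diffuse large B-cell lymphoma (DLBCL) cell lines and, within each line, between AZD8186 and vehicle. AZD8186 inhibits the beta and delta isoforms of phosphoinositide 3-kinase (PI3K).

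The 30 RNA-seq libraries came from OCI-Ly10 and TMD8, lines of the activated B-cell-like (ABC) subtype, and from HT and K422, lines of the germinal centre B-cell-like (GCB) subtype. Cells of each line received 0.5 µM AZD8186 or DMSO for 6, 12, 18 or 24 h, and TMD8 had no 12 h libraries, which left 7 ABC and 8 GCB pairs of libraries matched for line and time. Each combination of line, treatment and time had 1 library, so the time points stand in as the replicates, and nothing in the labels says that the cultures were independent. P-values therefore measure the spread between these libraries only. With 2 lines of each subtype, a difference between subtypes cannot be told apart from a difference between those lines. The labels call the controls DMSO, while the design text of the series calls them untreated. The c-FLIP gene and TNF, 1 of the further pathway genes below, were singled out by the study from these same libraries. Their direction of change in the ABC lines is therefore given here as a base for other values and not as independent evidence.

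Death receptors on the cell surface carry a cytoplasmic death domain. When Fas ligand binds FAS, or TRAIL binds the receptors encoded by TNFRSF10A and TNFRSF10B, FADD is drawn to the receptor and gathers the precursors of the initiator caspases, which then activate one another and start apoptosis. The proteins of CFLAR resemble the initiator caspases but lack their activity. They enter the same complex, and several splice forms exist, among them a long and a short form that differ in how they restrain caspase activation. RIPK1 and the ubiquitin ligase of BIRC2 shape signalling from tumour necrosis factor receptors towards NF-κB or towards death, and XIAP inhibits effector caspases directly. Many B-cell lymphomas of the ABC subtype carry constant NF-κB activity, and CFLAR is a known NF-κB target gene.

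RefSeq promoter windows, each covering 250 bases before and 50 bases after an annotated start (GRCh38.p14), were matched for 7 of the 10 genes, as 19 windows. They are shown because the NF-κB binding consensus of 10 bases, searched by name on both strands, was found in 2 of the 19 windows, against 5.91% of all 35116 promoter windows of the same length. The capitals mark the match. The CFLAR window belongs to 1 of 4 starts (chr2:201118466-201118765, plus strand), with the match ending 87 bases before the start site, and the FAS window belongs to 1 of 3 starts (chr10:88991181-88991480, plus strand), with the match ending 147 bases before it. A match of letters is a description and not evidence of binding.
CFLAR: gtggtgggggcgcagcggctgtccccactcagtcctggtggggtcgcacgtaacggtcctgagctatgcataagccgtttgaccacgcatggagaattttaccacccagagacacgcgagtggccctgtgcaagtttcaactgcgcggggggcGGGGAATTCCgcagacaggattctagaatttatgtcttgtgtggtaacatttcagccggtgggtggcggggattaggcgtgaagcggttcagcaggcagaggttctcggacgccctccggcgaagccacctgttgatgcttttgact
FAS: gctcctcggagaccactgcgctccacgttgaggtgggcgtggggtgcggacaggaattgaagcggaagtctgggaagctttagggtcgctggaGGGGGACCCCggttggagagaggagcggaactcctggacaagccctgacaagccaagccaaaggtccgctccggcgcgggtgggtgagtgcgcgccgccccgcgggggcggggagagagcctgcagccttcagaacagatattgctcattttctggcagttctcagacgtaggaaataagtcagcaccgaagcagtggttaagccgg
The forkhead core TGTTTAC, the motif of the FOXO factors that PI3K signalling keeps out of the nucleus, had no match on either strand in the 19 windows, and 3.42% of all windows held it.

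CFLAR lies on chromosome 2 at 201116104 to 201176687 (plus strand, GENCODE 29, GRCh38), followed on the same strand by CASP10 at 201182881 to 201229406 and CASP8 at 201233443 to 201287711. An antisense gene, CFLAR-AS1, covers 201140278 to 201157823 within CFLAR, and since no source used here says whether the libraries kept strand, reads from it and from CFLAR cannot be told apart. An antisense gene at FAS would raise the same limit. Neither CFLAR-AS1 nor FAS-AS1 had an entry under that symbol among the deposited genes. FADD (70203163 to 70207390) and BIRC2 (102347211 to 102378670) lie on chromosome 11, FAS (88990582 to 89015785) on chromosome 10, RIPK1 (3063991 to 3115187) on chromosome 6 and XIAP (123859724 to 123913979) on chromosome X, all on the plus strand. TNFRSF10A (23190452 to 23225126) and TNFRSF10B (23020133 to 23069179) lie on the minus strand of chromosome 8.

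The libraries held 15820230 to 23579029 expected counts, with a median of 18591638. The 6 B-cell markers all had a median of at least 1 TPM, a level scaled for transcript length and library total, in every line. IRF4, BATF, CCND2 and CD44, markers of the ABC subtype, reached at most 0.21 TPM in any HT or K422 library, and BCL6 and MME, markers of the GCB subtype, were at 171 to 364 TPM and 22.4 to 51.9 TPM there, so these markers followed the subtype labels, while FOXP1, on the ABC list, overlapped between K422 and the ABC lines. LMO2, a GCB marker, went against them, at 5.16 to 35.4 TPM in TMD8, 0 to 0.42 TPM in OCI-Ly10, 0.19 to 0.66 TPM in K422 and 0 in all HT libraries. Of 5 T-cell markers measured, CD3D and CD3G were at 61.6 to 116 TPM in K422, while CD2 was at 0 there and CD8A at 0.08 TPM or less. The summed T-cell markers of the 3 other lines reached 5.2 TPM at most, and the 6 myeloid markers summed to at most 1.28 TPM in every line. DCN, on the stromal list, was at 154 to 187 TPM in K422 with AZD8186 and at 98.1 to 127 TPM with DMSO, and PECAM1, of the same list, at 1.37 to 5.95 TPM with AZD8186 and at 0.19 to 0.42 TPM with DMSO, with the 3 collagen genes of that list at 0. In the GCB fit both stromal markers tested were higher, with a median log2 difference of 2.28. Genes of ribosomal proteins took 21.4% to 25.8% of counts in ABC libraries with AZD8186 and 17.5% to 23.2% with DMSO, and 13.6% to 18.3% in GCB libraries with AZD8186 and 11.3% to 17.1% with DMSO. Within HT and within K422 these shares did not overlap, with AZD8186 the higher. Whether these shifts bear on the results below was not tested.

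Before treatment effects, the DMSO libraries gave the standing level of each gene in each line. In TPM, where genes can be compared, CFLAR was the most abundant of the 10 genes in the ABC lines, at 228, 207, 259 and 281 TPM in OCI-Ly10 (6, 12, 18 and 24 h) and 203, 168 and 153 TPM in TMD8 (6, 18 and 24 h). The GCB lines had 17.4, 17.3, 16.5 and 18.7 TPM in HT and 20.2, 13.4, 20.1 and 19.9 TPM in K422. The ABC libraries lay far above the GCB libraries with no overlap, and the ABC mean of 214 TPM was 11.9 times the GCB mean of 17.9 TPM. By edgeR's quasi-likelihood test on counts with Benjamini-Hochberg adjustment, OCI-Ly10 exceeded TMD8 by 0.47 on the log2 scale (SE 0.10, adjusted p = 0.000298) and TMD8 exceeded K422 by 3.34 (SE 0.10, adjusted p = 1.94e-15), while K422 and HT, which overlapped, differed by 0.08 (SE 0.09, adjusted p = 0.465).

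CASP10, an initiator caspase whose gene adjoins CFLAR, had the same division. Its DMSO levels were 1.28 to 3.08 TPM in the ABC lines and 0.05 to 0.2 TPM in the GCB lines, where it rested on 2 to 11 counts a library. OCI-Ly10 exceeded K422 by 4.39 on the log2 scale (SE 0.32, adjusted p = 4.32e-10), and neither the ABC pair of lines (adjusted p = 0.708) nor the GCB pair (adjusted p = 0.378) passed the test. CASP8, its neighbour on the other side, showed no such division, with 5.29 to 13.2 TPM in the ABC lines and 6.03 to 8.32 TPM in the GCB lines. In OCI-Ly10 CASP8 averaged 11.8 ± 1.17 TPM (SD, n = 4), above every DMSO library of the other lines. The ratio of CFLAR to CASP8 in TPM was 16.8 to 24 in OCI-Ly10 and 21.6 to 34.9 in TMD8 with DMSO, against 2.31 to 2.63 in HT and 1.96 to 3.33 in K422.

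The TRAIL receptors ran the other way. TNFRSF10A was at 17.6 to 30 TPM in the GCB lines and 2.39 to 4.78 TPM in the ABC lines, with a GCB mean 5.57 times the ABC mean. TNFRSF10B was at 13.6 to 20.6 TPM in the GCB lines and 3.67 to 6.02 TPM in the ABC lines, with a GCB mean 3.33 times the ABC mean. Neither gene's ranges overlapped between subtypes. TPM leaned towards the GCB lines over all genes. The median ABC minus GCB line difference was -0.29 to -0.17 on log2(TPM + 1), beside 0.02 to 0.05 on counts. Fitted on counts, the GCB lines had 3.84 to 4.91 times the TNFRSF10A of the ABC lines and 2.36 to 2.95 times the TNFRSF10B. HT exceeded TMD8 in TNFRSF10A by 1.94 on the log2 scale (SE 0.16, adjusted p = 3.65e-09) and exceeded OCI-Ly10 in TNFRSF10B by 1.24 (SE 0.07, adjusted p = 1.37e-11). Within the GCB lines, K422 was above HT by 0.29 for TNFRSF10A (adjusted p = 0.0467) and by 0.17 for TNFRSF10B (adjusted p = 0.0318). The TNFRSF10A difference was lost without the 12, 18 or 24 h libraries (highest adjusted p = 0.143), and the TNFRSF10B difference without those of any 1 time point (highest adjusted p = 0.115). The ABC lines did not pass the test for either receptor (adjusted p = 0.766 and 0.103).

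FAS marked a single line. K422 had 12.8, 14.5, 14.8 and 15.2 TPM with DMSO, against 0.58 to 1.63 TPM in the ABC lines and 0.18 to 0.35 TPM in HT, where only 9 to 18 counts a library were seen. K422 exceeded TMD8 by 3.31 on the log2 scale (SE 0.18, adjusted p = 8.86e-12) and OCI-Ly10 exceeded HT by 2.04 (SE 0.26, adjusted p = 1.02e-06), with TMD8 and OCI-Ly10 not separated (adjusted p = 0.0672), except without the 6 h libraries (0.75, adjusted p = 0.00216).

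BIRC2, which encodes the ubiquitin ligase cIAP1, was at 11.5 to 18 TPM in the GCB lines and 4.38 to 6.03 TPM in the ABC lines, without overlap. HT exceeded K422 by 0.37 on the log2 scale (SE 0.10, adjusted p = 0.0031) and K422 exceeded TMD8 by 0.89 (SE 0.12, adjusted p = 1.90e-06), while the ABC lines were not separated (adjusted p = 0.997). RIPK1 was at 8.29 to 15.8 TPM in the GCB lines and 5.67 to 7.89 TPM in the ABC lines. HT stood above K422 in RIPK1 by 0.70 (SE 0.09, adjusted p = 8.86e-07), but K422 and TMD8 were not separated on counts (adjusted p = 0.917), although their TPM ranges lay apart. TMD8 exceeded OCI-Ly10 by 0.23 (adjusted p = 0.0471), a call lost without any 1 of the 4 time points (highest adjusted p = 0.263). FADD, at 23.7 to 33.6 TPM, and XIAP, at 1.98 to 3.52 TPM, overlapped between the subtypes. On counts, edgeR called both higher in each ABC line than in each GCB line. FADD was higher by 0.30 to 0.58 on the log2 scale (highest adjusted p = 0.00126) and XIAP by 0.44 to 0.50 (highest adjusted p = 0.0124). In TPM the FADD mean was instead highest in K422, at 31.4 against 29.7 in OCI-Ly10.

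Counted over the 10 genes, TMD8 against OCI-Ly10 gave 3 called genes, beside 69.3% of all genes called in that comparison. The comparisons across subtypes called 10 of 10 for OCI-Ly10 against HT (80.6% of all genes), 10 of 10 for OCI-Ly10 against K422 (80.9%), 9 for TMD8 against HT (76.4%) and 8 for TMD8 against K422 (77.1%). K422 against HT called 6 (68%). Most expressed genes differed between these lines, so the counts themselves are near the background, and the sizes above carry the description.

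**Figure D1:**
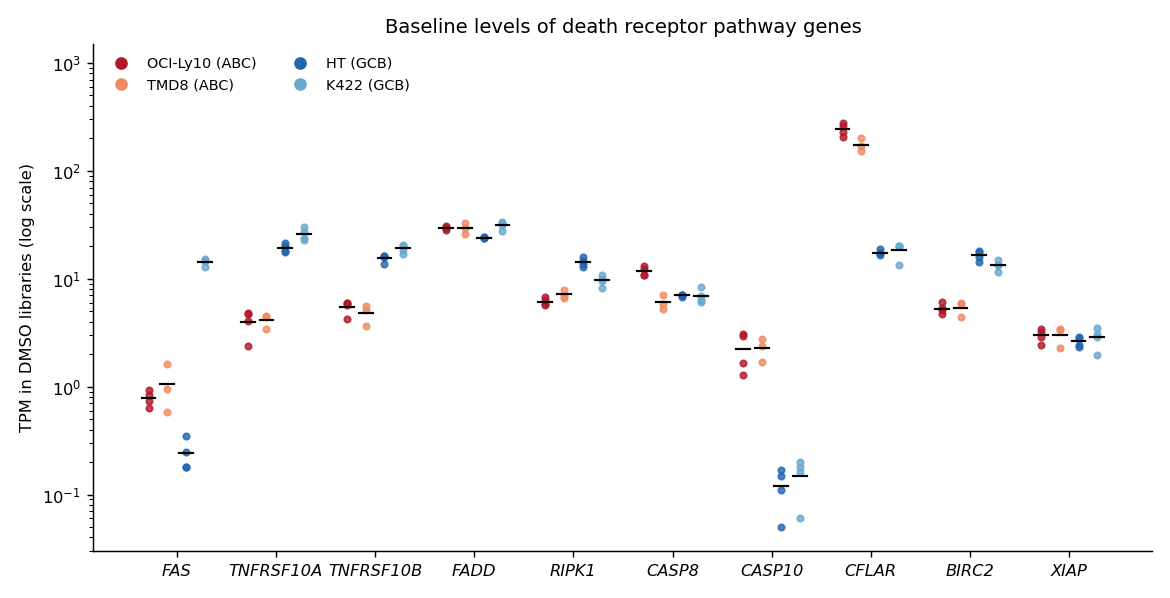
Level of each gene in the DMSO libraries in TPM (log axis), 1 point per library and time point, with black bars at the means, for OCI-Ly10 (n = 4), TMD8 (n = 3), HT (n = 4) and K422 (n = 4). CFLAR and CASP10 are higher in the ABC lines, TNFRSF10A, TNFRSF10B and BIRC2 in the GCB lines, and FAS in K422.

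Treatment with AZD8186 moved CFLAR in opposite directions in the subtypes. CFLAR was lower with AZD8186 in 7 of 7 ABC pairs and higher in 8 of 8 GCB pairs. Normalised CPM values (counts scaled by library total, not by length) in OCI-Ly10 were 368, 332, 330 and 366 with AZD8186 (6, 12, 18 and 24 h), against 493, 465, 497 and 498 with DMSO. In TMD8 they were 174, 232 and 229 with AZD8186 (6, 18 and 24 h), against 463, 328 and 301 with DMSO. The treated and control libraries did not overlap in either line, and the TMD8 6 h pair was the most extreme. In HT, CFLAR had 45.1, 47.9, 54.4 and 48.4 CPM with AZD8186, against 40.3, 40.4, 37 and 41.7 CPM with DMSO. In K422 it had 54.4, 53.3, 62.4 and 58.1 CPM with AZD8186, against 45.5, 39.4, 43 and 43.2 CPM with DMSO. Here too the ranges lay apart, with every treated library on the higher side.

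**Figure D2:**
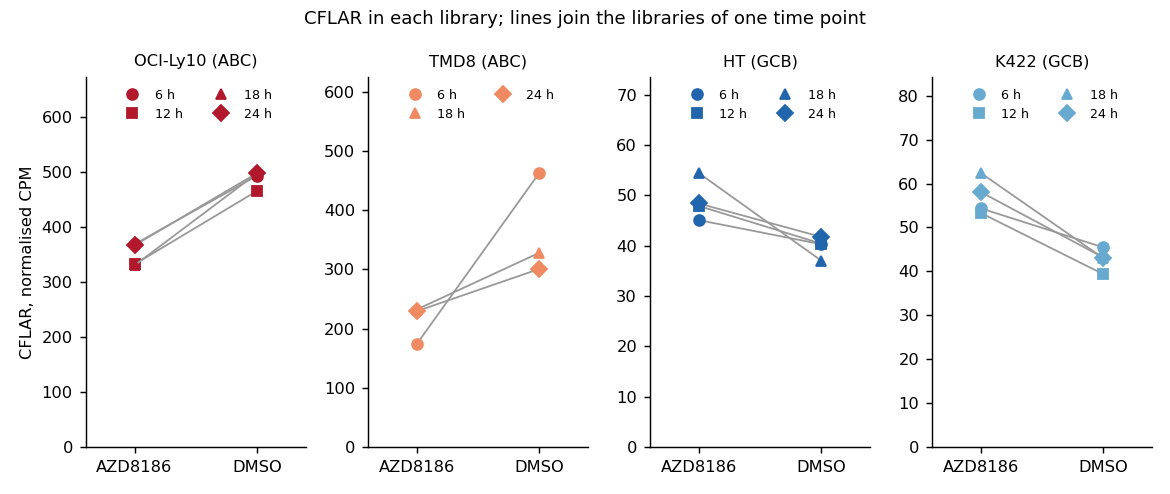
CFLAR in normalised CPM with AZD8186 (left in each panel) and DMSO (right), 1 panel per line with its own axis from 0, and grey lines joining libraries of the same time point. All 7 ABC pairs are lower with AZD8186 and all 8 GCB pairs are higher.

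The fitted difference in the ABC lines was -0.61 on the log2 scale (SE 0.10, edgeR quasi-likelihood test, adjusted p = 0.000787), or 0.66-fold. It lay between -0.64 and -0.47 when each pair was left out in turn, and was -0.47 (adjusted p = 5.22e-05) without the TMD8 6 h pair. It was called in OCI-Ly10 alone (-0.49, adjusted p = 0.000189) and not in TMD8 alone (-0.76, adjusted p = 0.085, 3 pairs) or with treatment as the only term (-0.58, adjusted p = 0.137). The GCB difference was 0.36 (SE 0.05, adjusted p = 7.37e-05), or 1.28-fold, called in HT alone (0.29, adjusted p = 0.00307) and in K422 alone (0.40, adjusted p = 0.00277). The exact two-sided permutation of signs gave p = 0.0156 for the 7 ABC pairs and p = 0.00781 for the 8 GCB pairs, the smallest values these numbers of pairs allow, among 20 such tests. With Benjamini-Hochberg adjustment over those 20 tests both became 0.0521 and did not pass. In bulk RNA, fewer cells of a kind and less RNA per cell cannot be told apart.

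Tested directly, the response of CFLAR differed between the subtypes by 0.97 on the log2 scale (GCB minus ABC, SE 0.13, adjusted p = 0.000107), and by 0.84 to 1.01 when each of the 15 pairs was left out. The same test called 3 of the 10 genes, beside 13.4% of all 11286 genes tested. BIRC2 differed by 0.52 (SE 0.12, adjusted p = 0.00602) and FAS by -0.78 (SE 0.18, adjusted p = 0.00755). RIPK1 had 0.22 (SE 0.09, adjusted p = 0.114). On log2(TPM + 1) with limma the FAS difference was -0.36 and did not pass (adjusted p = 0.0742), while RIPK1 passed (0.32, adjusted p = 0.0129). Of the other 6 genes, CASP8, FADD, TNFRSF10A, TNFRSF10B and XIAP had differences between -0.10 and 0.08 with adjusted p of 0.535 or more. CASP10 had -0.03 (SE 0.56, adjusted p = 0.989). Its GCB libraries held only 5 to 18 counts with AZD8186 and 2 to 11 with DMSO, so its difference could not be assessed.

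In the ABC lines 3 of the 10 genes were lower with AZD8186, where 13.8% of 11419 genes tested were lower, and 1 was higher, where 15.3% were higher. The median difference over the 10 genes was -0.04 on the log2 scale, beside 0.01 over all genes tested. For the GCB lines, 9 of the 10 passed the filter on low counts. Of these 4 were lower, where 23.5% of 10965 genes tested were lower, and 3 were higher, where 25.9% were higher, with a median of -0.14 for the 9 genes and 0.02 for all genes. With treatment as the only term, so that differences between lines and times stayed in the residual spread, none of the 10 genes was called in the ABC lines, and CFLAR (adjusted p = 0.00302) and TNFRSF10A (adjusted p = 0.0153) were called in the GCB lines. CASP10 did not pass that filter, with 5 to 18 counts in the GCB libraries with AZD8186 and 2 to 11 with DMSO.

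**Figure D3:**
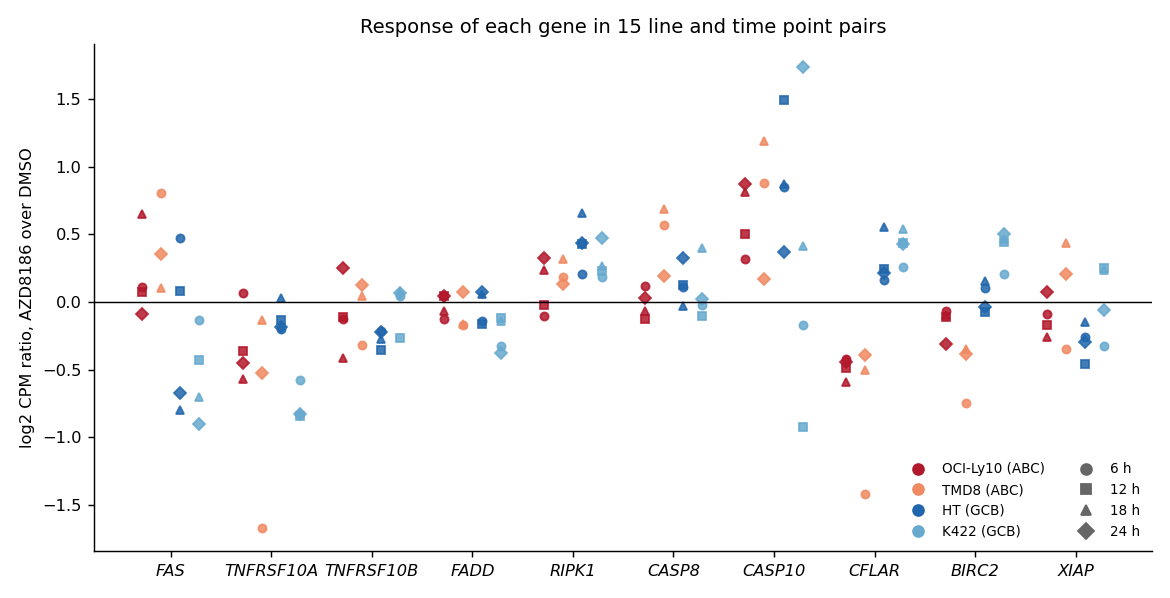
Log2 CPM ratio of AZD8186 over DMSO for each gene in 15 pairs of libraries, with colours for lines and shapes for time points. CFLAR lies below 0 in all ABC pairs and above 0 in all GCB pairs, and CASP10 ratios in HT and K422 rest on under 20 counts a library.

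Among the receptors, TNFRSF10A fell with AZD8186 in both subtypes. In OCI-Ly10 it had 3.59, 3.97, 3.95 and 3.94 CPM with AZD8186, against 3.42, 5.14, 5.92 and 5.44 CPM with DMSO. In TMD8 it had 2.05, 4.11 and 3.35 CPM with AZD8186, against 6.76, 4.51 and 4.86 CPM with DMSO. The libraries of OCI-Ly10 overlapped and those of TMD8 did not, and 6 of 7 pairs were lower. The ABC difference was -0.53 (SE 0.17, adjusted p = 0.0276), and -0.35 (adjusted p = 0.0402) without the TMD8 6 h pair. Neither line passed alone, at -0.35 in OCI-Ly10 (adjusted p = 0.107) and -0.75 in TMD8 (adjusted p = 0.201). The call was lost when the OCI-Ly10 18 h pair (adjusted p = 0.088), the OCI-Ly10 24 h pair (0.073) or the TMD8 24 h pair (0.06) was left out.

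In the GCB lines, TNFRSF10A fell in K422, which had 19.1, 15.8, 19.2 and 16.7 CPM with AZD8186, against 28.6, 28.5, 33.8 and 29.8 CPM with DMSO, with no overlap. HT had 19.8, 21, 26.1 and 23 CPM with AZD8186, against 22.8, 23, 25.6 and 26.1 CPM with DMSO, which overlapped. The GCB difference was -0.44 (SE 0.10, adjusted p = 0.00183), and that of K422 alone was -0.78 (adjusted p = 0.000395) beside -0.13 (adjusted p = 0.139) in HT alone. The response differed between the lines by -0.65 (K422 minus HT, SE 0.10, adjusted p = 0.00199). This test of line difference called 2 of 9 genes, where 16.6% of all genes were called.

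The other receptor for TRAIL, TNFRSF10B, had a GCB difference of -0.14 (SE 0.05, adjusted p = 0.0442), with 39.2 to 45.1 CPM in HT with AZD8186 against 45.4 to 54.4 CPM with DMSO. In K422 it had 49.6 to 61.9 CPM with AZD8186 and 53 to 59.6 CPM with DMSO. The call was lost when any 1 HT pair was left out, at 6, 12, 18 or 24 h (adjusted p = 0.0958, 0.139, 0.138 and 0.105), and when the K422 12 h pair was (0.138). With pair as a replicate block it did not pass either (adjusted p = 0.0708). Its ABC difference was -0.07 (SE 0.09, adjusted p = 0.603).

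FAS fell with AZD8186 in the line that expressed it. K422 had 34.2, 32.5, 24.8 and 21.8 CPM with AZD8186 at 6, 12, 18 and 24 h, against 37.4, 43.8, 40.4 and 40.8 CPM with DMSO, with no overlap and the widest gap at 24 h. The GCB difference was -0.50 (SE 0.12, adjusted p = 0.00384). In K422 alone it was -0.55 (adjusted p = 0.00965), and in HT alone -0.26 (adjusted p = 0.594) from 6 to 14 counts a library with AZD8186 and 9 to 18 with DMSO. In the ABC lines 6 of 7 pairs were higher, at 1.94 to 5.7 CPM with AZD8186 against 1.91 to 4.43 CPM with DMSO, and the difference of 0.30 (SE 0.19, adjusted p = 0.26) did not pass. The difference between subtypes given above therefore rests on low counts in 3 of the 4 lines.

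FADD, the adaptor, was at 36.2 to 41.9 CPM in ABC libraries with AZD8186 and 37.6 to 45.8 CPM with DMSO, a difference of -0.05 (SE 0.06, adjusted p = 0.557). In the GCB lines it was lower by a small amount, -0.14 (SE 0.05, adjusted p = 0.0453), with K422 at 30.6 to 34.6 CPM with AZD8186 against 37.5 to 42.1 CPM with DMSO and HT overlapping. That call was lost without the HT 6 or 12 h pair (adjusted p = 0.0736 and 0.0771), without the K422 pair at 6, 12, 18 or 24 h (0.128, 0.0734, 0.087 and 0.114) and, with pair as a replicate block, had adjusted p = 0.0642.

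RIPK1, the kinase, rose with AZD8186 in 8 of 8 GCB pairs. HT had 49.7, 63.3, 72.4 and 67.7 CPM with AZD8186, against 43, 47.1, 45.8 and 50 CPM with DMSO. K422 had 34.7, 31.3, 37.9 and 38 CPM with AZD8186, against 30.5, 26.6, 31.5 and 27.4 CPM with DMSO. The ranges overlapped slightly in both lines, but each pair moved the same way, and the difference was 0.37 (SE 0.07, adjusted p = 0.000387). In the ABC lines it was 0.16 (SE 0.07, adjusted p = 0.116), with 5 of 7 pairs higher, and it passed only without the OCI-Ly10 6 h pair (adjusted p = 0.0411).

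CASP10 rose with AZD8186 in 7 of 7 ABC pairs, opposite to its neighbour CFLAR. OCI-Ly10 had 5.91, 8.21, 15 and 18.3 CPM with AZD8186 at 6, 12, 18 and 24 h, against 4.73, 5.78, 8.46 and 9.96 CPM with DMSO. Within OCI-Ly10 both series climbed with time, so the ranges overlapped although each pair was higher. TMD8 had 11.7, 13.5 and 9.8 CPM with AZD8186, against 6.32, 5.88 and 8.69 CPM with DMSO, with no overlap. The difference was 0.72 (SE 0.17, adjusted p = 0.00749), or 1.64-fold, with adjusted p between 0.00108 and 0.0325 when each pair was left out. It was called in OCI-Ly10 alone (0.67, adjusted p = 0.0012) and not in TMD8 alone (0.74, adjusted p = 0.103).

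CASP8 did not pass in either subtype, with 0.20 (SE 0.10, adjusted p = 0.159) in the ABC lines and 0.11 (SE 0.06, adjusted p = 0.183) in the GCB lines. In TMD8 it had 18.9, 16.7 and 13.9 CPM with AZD8186, against 12.6, 10.3 and 12.1 CPM with DMSO, all treated libraries higher, while OCI-Ly10 had 17 to 23.6 CPM with AZD8186 against 17.9 to 22.3 CPM with DMSO. The line difference in the ABC subtype called 0 of the 10 genes by edgeR, where 0.429% of all genes were called, and 2 of the 10, CASP8 and BIRC2, had an unadjusted p under 0.05, as did 1226 of all 11419 genes (10.7%). The limma test on log2(TPM + 1) also called 0 of them. The ratio of CFLAR to CASP8 in TPM was 10.4 to 14.1 in OCI-Ly10 with AZD8186 against 16.8 to 24 with DMSO, and 6.84 to 10.9 in TMD8 with AZD8186 against 21.6 to 34.9 with DMSO. With AZD8186 it was 2.41 to 3.63 in HT and 2.78 to 3.74 in K422, which overlapped the DMSO ratios given above. TPM divides by transcript length, so these ratios also take in the change in CFLAR length given below.

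Of the inhibitor genes, BIRC2 was lower with AZD8186 in the ABC lines and higher in the GCB lines. In TMD8 it had 11.8, 10.7 and 10.4 CPM with AZD8186, against 19.8, 13.7 and 13.6 CPM with DMSO. OCI-Ly10 had 14.4, 13.2, 14.2 and 13.3 CPM with AZD8186, against 15.1, 14.2, 15.1 and 16.5 CPM with DMSO. All 7 ABC pairs were lower, with no overlap in TMD8, and the difference was -0.30 (SE 0.10, adjusted p = 0.0283). Neither line passed alone, at -0.15 in OCI-Ly10 (adjusted p = 0.238) and -0.49 in TMD8 (adjusted p = 0.106). Leaving out the OCI-Ly10 18 or 24 h pair (adjusted p = 0.0501 and 0.0765) or the TMD8 18 or 24 h pair (0.0724 and 0.0659) ended the call.

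In K422, BIRC2 had 40.3, 43.4, 49.3 and 52.3 CPM with AZD8186, against 34.9, 31.9, 35.7 and 37 CPM with DMSO, with no overlap. HT had 43.6 to 47.9 CPM with AZD8186 against 39.2 to 47.6 CPM with DMSO. The GCB difference was 0.22 (SE 0.07, adjusted p = 0.0225), made of 0.39 in K422 alone (adjusted p = 0.00407) and 0.03 in HT alone (adjusted p = 0.71), and these lines differed by 0.37 (SE 0.09, adjusted p = 0.0177). The GCB call was lost without the K422 12, 18 or 24 h pair (adjusted p = 0.0672, 0.0569 and 0.0933), and the line difference without the HT 12 or 24 h pair or the K422 18 h pair (0.0569, 0.0564 and 0.0566). XIAP did not pass in either subtype, at -0.03 (SE 0.11, adjusted p = 0.858) in the ABC and -0.14 (SE 0.09, adjusted p = 0.216) in the GCB lines. In HT alone XIAP was lower, at 13.4 to 15.5 CPM with AZD8186 against 16.1 to 18.9 CPM with DMSO (-0.30, adjusted p = 0.00869). The edgeR test of the line difference in the XIAP response did not pass (0.32, K422 minus HT, SE 0.14, adjusted p = 0.143).

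Time was tested as the change in response between the early (6 and 12 h) and late (18 and 24 h) pairs. It called 0 of the 10 genes in the ABC lines and 0 of 9 in the GCB lines by edgeR, where 0% of all genes were called in either subtype. At an unadjusted p under 0.05, 1356 genes and none of the 10 stood out in the ABC lines, and 759 genes and 1 of the 9, FAS, in the GCB lines. The limma test on log2(TPM + 1) also called 0 genes in both.

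The deposited tables also gave each gene's mean transcript length, weighted by the estimated abundance of its transcripts, which moves when the mix of transcripts moves. CFLAR had 29 annotated transcripts in the tables. This reading was chosen after the values were seen, and it was not used to choose the genes. In OCI-Ly10 the mean CFLAR transcript had 2970, 3387, 3424 and 3415 bases with AZD8186 (6, 12, 18 and 24 h), against 2502, 2896, 2577 and 2562 bases with DMSO. In TMD8 it had 3426, 3342 and 3531 bases with AZD8186, against 2559, 2479 and 2901 bases with DMSO. Every treated ABC library was above every ABC control, and the mean log2 ratio was 0.35 ± 0.09 (SD, n = 7 pairs), or 1.27-fold longer (exact two-sided permutation of signs, p = 0.0156, the smallest possible, among 16 such tests). With Benjamini-Hochberg adjustment over those 16 tests this p became 0.125 and did not pass.

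The background was the 7382 genes that passed the ABC filter and whose mean length varied over the 30 libraries. A length greater in all 7 ABC pairs was found for 90 of them, or 1.22%, and 108 genes were shorter in all 7. The mean log2 length ratio over these genes had a median of 0, and 3 of the 7382, CFLAR among them, had a mean ratio at least as large as that of CFLAR. Of the other 9 genes, RIPK1 was also longer in all 7 ABC pairs, by a log2 ratio of 0.0018. Among GCB pairs the CFLAR length went both ways, longer in 5 and shorter in 3 of 8 pairs, with 2856 to 4037 bases with AZD8186 and 2863 to 3758 bases with DMSO (exact permutation p = 0.477). The difference in length response between subtypes was not tested, and the tables do not resolve which transcripts made up the mean.

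**Figure D4:**
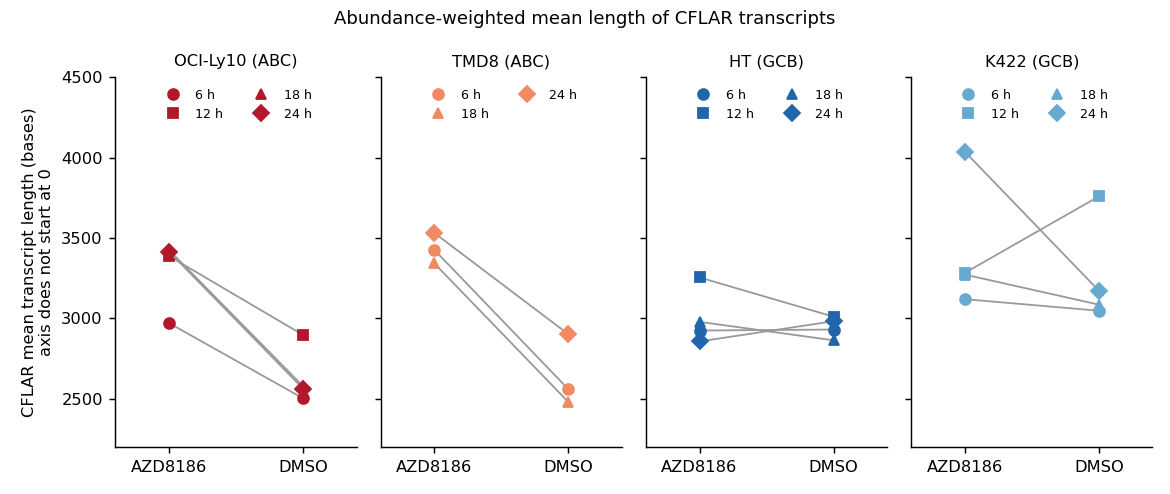
Abundance-weighted mean length of CFLAR transcripts in bases (axis cut above 0) with AZD8186 (left) and DMSO (right), 1 panel per line, with grey lines joining libraries of the same time point. All 7 ABC pairs are longer with AZD8186, at 2970 to 3531 bases against 2479 to 2901 bases, and the GCB pairs are mixed.

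The fall of CFLAR was larger in TPM, which divides by that length, than in counts. OCI-Ly10 had 144, 109, 104 and 123 TPM with AZD8186, against 228, 207, 259 and 281 TPM with DMSO. TMD8 had 51.5, 70.7 and 76.8 TPM with AZD8186, against 203, 168 and 153 TPM with DMSO. On log2(TPM + 1) the ABC difference was -1.18 (limma, adjusted p = 2.12e-05), where the median over all genes was -0.15 and 87.3% of called genes were lower, beside 47.4% on counts. The parts of length and of scaling in that gap were not tested apart. The GCB difference in TPM was 0.23 (adjusted p = 0.0263), smaller than on counts. K422 at 24 h went against the rest, with 17.9 TPM at a mean length of 4037 bases with AZD8186 and 19.9 TPM at 3172 bases with DMSO.

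Over the 15 pairs, the genes whose log2 CPM ratios lay closest to those of CFLAR were PIKFYVE, a lipid kinase, with a root mean square difference of 0.15, SBNO2 (0.17), NFKB2, which encodes the precursor of an NF-κB subunit (0.21), C16orf87 (0.25) and VEZT (0.26). The median over the 9039 genes compared was 0.63. PIKFYVE averaged -0.56 in the 7 ABC pairs and 0.34 in the 8 GCB pairs, and NFKB2 averaged -0.42 and 0.39. The TMD8 6 h pair was the lowest for CFLAR and for all 5 of these genes.

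**Figure D5:**
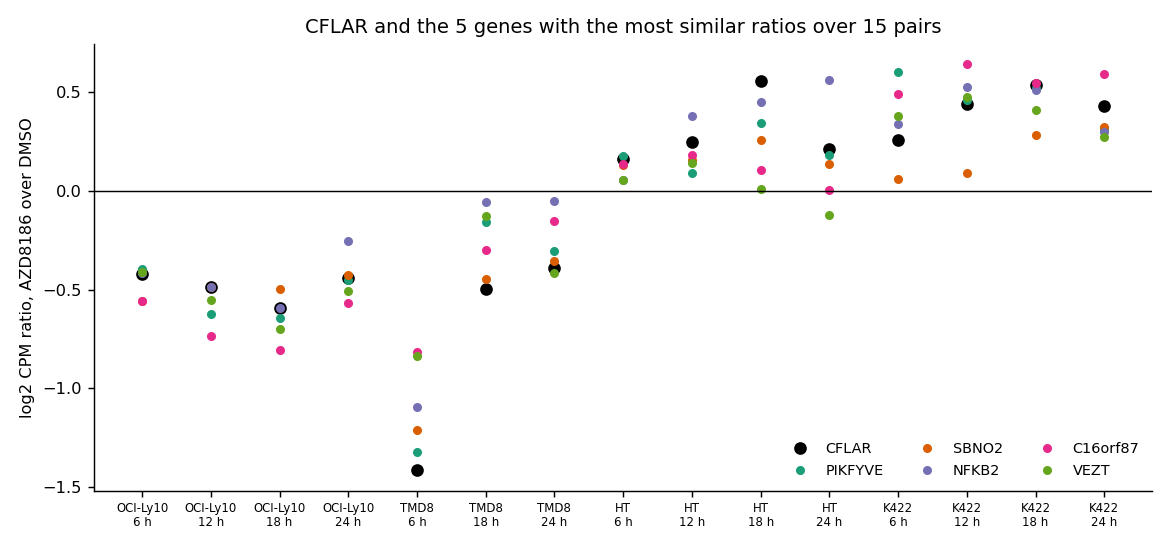
Log2 CPM ratio of AZD8186 over DMSO in each of the 15 pairs for CFLAR (large black points) and the 5 genes with the smallest root mean square difference from it. The genes were chosen for this likeness, so the shared pattern is a description.

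Around the 10 genes, 46 further pathway genes were counted in 6 lists, to be read beside the shares of all genes tested, 13.8% lower and 15.3% higher in the ABC lines and 23.5% lower and 25.9% higher in the GCB lines. Of the 5 death ligands, 3 passed the filter in the ABC lines and 2 were lower, and 2 passed in the GCB lines and both were lower. TNF, the ligand tumour necrosis factor, was at 1.9 to 9.04 CPM in ABC libraries with AZD8186 (median 3.65) against 7.6 to 73.6 CPM with DMSO (median 9.76), a difference of -2.13 (SE 0.25, adjusted p = 7.53e-05). GCB libraries had 0.163 to 3.65 CPM with AZD8186 (median 1.11) against 0.459 to 16 CPM with DMSO (median 6.37), a difference of -2.06 (SE 0.17, adjusted p = 8.01e-07). LTA, which encodes lymphotoxin alpha, was also lower in that subtype, by a log2 difference of -2.10 (SE 0.17, adjusted p = 4.26e-07). It was lower in the ABC lines too (-1.56, SE 0.39, adjusted p = 0.00937). ABC libraries had 3.15 to 7.83 CPM of LTA with AZD8186 (median 4.23) against 5.6 to 93.5 CPM with DMSO (median 7.28). GCB libraries had 1.07 to 46.6 CPM with AZD8186 (median 22.3) against 3.1 to 279.5 CPM with DMSO (median 88.1). The subtype difference of the LTA response did not pass (adjusted p = 0.379).

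The 14 genes of the TNF receptor complex and its ubiquitin machinery all passed the filter. In the ABC lines 0 were lower and 2 higher, among them RBCK1, part of the linear ubiquitin ligase (0.26, SE 0.06, adjusted p = 0.00823). In the GCB lines 3 were lower and 3 higher, among them CYLD, a deubiquitinase (0.58, SE 0.10, adjusted p = 0.000271), and RNF31, the catalytic part of that ligase (0.22, SE 0.05, adjusted p = 0.00272). The counts of higher genes in the ABC lines and of both directions in the GCB lines were near the shares of all genes. The list's medians were 0.05 in the ABC lines and 0.09 in the GCB lines on the log2 scale, beside 0.01 and 0.02 for all genes.

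Of the 6 regulators of the death-inducing complex, 1 was higher in the ABC lines and none lower, while 2 were lower and 1 higher in the GCB lines, with PEA15, a death effector domain protein, at -0.49 (SE 0.04, adjusted p = 1.02e-06). Of the 11 effector caspases and mitochondrial genes, 3 were lower and 1 higher in the ABC lines and 6 were lower and none higher in the GCB lines. BID, the link from the initiator caspases to the mitochondria, was lower in the ABC lines (-0.44, SE 0.09, adjusted p = 0.00297), as was HTRA2, a mitochondrial protease (-0.31, SE 0.07, adjusted p = 0.00402), while APAF1, the scaffold of the apoptosome, was higher (0.44, SE 0.10, adjusted p = 0.00679). BID was lower in the GCB lines too (-0.29, SE 0.06, adjusted p = 0.000589), and the subtype difference of its response did not pass (adjusted p = 0.169). Of 7 other death receptors and decoys, 2 passed the filter in the ABC lines, and TNFRSF21, a death receptor, was higher (0.82, SE 0.17, adjusted p = 0.00285). RIPK3, the necroptosis kinase, was the 1 gene of its list of 3 that passed the filter in the GCB lines, and it was higher (0.79, SE 0.15, adjusted p = 0.000506). Its GCB levels were low, at 0.622 to 6.91 CPM with AZD8186 against 0.332 to 4 CPM with DMSO. In the ABC lines RIPK3 did not pass (0.24, SE 0.17, adjusted p = 0.317), nor did the subtype difference of its response (adjusted p = 0.0928).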

How the data were processed

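RNA from 4 established DLBCL cell lines treated with 0.5 µM AZD8186 or DMSO was sequenced as 30 libraries, grouped by the labels' cell line, treatment and time. The authors aligned reads with HISAT2 and estimated abundances with RSEM against RefSeq transcripts and GRCh38.p12, as the submitters' processing notes and the study's methods state (their versions: not given in the sources used here). Each deposited table holds, per gene, the expected count, TPM and FPKM, together with transcript lengths. The authors' TPM and FPKM are scaled by transcript length and library size, and FPKM entered no result. A library's total of 15820230 to 23579029 expected counts limits precision mainly for genes under about 20 counts.

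In R 4.3.3, edgeR 4.0.16 fitted the rounded expected counts after filterByExpr and TMM scaling, its quasi-likelihood test was adjusted by Benjamini-Hochberg over every gene tested, and an adjusted p under 0.05 counted as a call. Each SE given with an edgeR difference was derived from the test, as the absolute log2 difference over the square root of its F statistic. Treatment was fitted with line and time as terms in each subtype (14 ABC and 16 GCB libraries). Differences of response were fitted as interactions with pair as a block, and baseline levels from the 15 DMSO libraries with time as a term. Log2 CPM ratios per pair used a prior count of 2 and TMM within each subtype, so CPM is not compared between subtypes. Genes compared with CFLAR had a mean of at least 5 CPM and passed the filter in both subtypes. Pairs were taken from line and time in the labels. The deviations of a library from its group correlated best with those of its own partner in 14 of 15 pairs, with the lowest correlation at -0.008.

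All 10 genes were always named. Of the listed further pathway genes, the 3 called genes with the smallest p in each direction and subtype were named. The genes and lists were chosen with earlier results of these data known. Alternatives were DESeq2 1.42.0, its size factors, limma 3.58.1 on log2(TPM + 1), other filters and terms, single lines, and leaving out each pair or time point. Scripts were tested on simulated data. No promoter window was used for CASP10, TNFRSF10A or TNFRSF10B.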

Additional observations from a re-analysis of the deposited data

Results flagged for a closer look

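The TMD8 6 h pair lay apart from the other ABC pairs for CFLAR, with a log2 ratio of -1.42 (the gap to its nearest neighbour was 0.80 of the range of the 7 pairs, against a critical value of 0.568), and for TNFRSF10A, with -1.67 (0.63 of the range). Of 20 groups of ratios examined these 2 stood out, and chance marks about 1 in 20. Without that pair the ABC differences were -0.47 for CFLAR and -0.35 for TNFRSF10A.

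The response differed between the subtypes by an interaction test for CFLAR (0.97, GCB minus ABC), FAS (-0.78) and BIRC2 (0.52), and between the GCB lines for TNFRSF10A (-0.65, K422 minus HT) and BIRC2 (0.37). The BIRC2 line difference did not pass without the HT 12 or 24 h pair or the K422 18 h pair (adjusted p = 0.0569, 0.0564 and 0.0566).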

How the results depend on the processing

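Alternative values for single genes were counted for only part of the comparisons, as listed in the last paragraph below. Of these 607 values, 503 kept their direction and side of the threshold, 73 lost the call, 10 gained one and 21 changed sign. CFLAR kept its call in 14 of 16 alternatives in the ABC lines, 17 of 17 in the GCB lines and 20 of 20 for the subtype difference, and a prior count of 0.5 changed none of the 20 exact tests. The cause of the changes below was not tested, beyond the fewer libraries of the single-line fits.

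On log2(TPM + 1) with limma, 5 of the 10 genes were lower in the ABC lines, with 4279 genes lower and 620 higher. The subtype difference called 2385 genes, and the GCB line difference called 1 of the 9 genes tested (1095 of all genes lower, 555 higher). With treatment as the only term, the ABC lines had 0 of the 10 genes lower and 0 higher (75 genes lower, 97 higher), and the GCB lines 1 lower and 1 higher (770 and 622 genes). OCI-Ly10 alone gave 1 of the 10 lower (1683 of 11500 genes tested), and TMD8 alone 0 lower and 0 higher (138 and 265 genes). HT alone gave 2 lower (2027 of 10729 genes tested). A minimum of 5 CPM, DESeq2 and pair as a replicate block each gave 2 of the 9 genes tested lower in the GCB lines. All genes lower in these fits numbered 2348 of 9322, 2524 of 10965 and 2484 of 10965. The block changed no other call. With no filter, the ABC line difference called 126 genes and the ABC time difference 32.

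When pairs were left out in turn, ABC calls ranged from 1 to 3 of the 10 genes lower and 1 to 2 higher (970 to 1893 and 1124 to 1965 genes). GCB calls ranged from 2 to 3 lower (2122 to 2571 genes). The ABC line difference ranged from 3 genes without TMD8 18 h to 417 without TMD8 6 h, the GCB line difference from 1 to 3 of the 10 genes and from 1025 to 2952 genes, and the ABC time difference from 0 to 2 genes.

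The alternative values for single genes left out the baseline differences of FADD, CASP8 and XIAP. For the other genes they left out baseline differences between lines not adjacent in mean TPM. They also left out the time differences, the ABC line difference, and the GCB line difference except for TNFRSF10A and BIRC2. For the subtype difference they held only CFLAR, FAS, BIRC2 and RIPK1. Among those counted, sign changes were confined to values that did not pass. In the ABC lines they were CASP8 on TPM (-0.027) and in OCI-Ly10 alone (-0.0091), RIPK1 on TPM (-0.042), and XIAP in TMD8 alone (0.11) and without OCI-Ly10 18 h (0.017) or TMD8 6 h (0.035), with a range of -0.099 to 0.035 over pairs left out. In the GCB lines they were CASP8 on TPM (-0.019) and XIAP in K422 alone (0.016). At baseline, TMD8 minus OCI-Ly10 turned for BIRC2 with size factors (-0.041), 5 CPM (-0.042), TPM (-0.0065), DESeq2 (-0.039) and without 6 h (-0.23) or 12 h (-0.019), with a range of -0.23 to 0.12 over time points left out, for CASP10 on TPM (0.023) and without 18 h (0.10, in a range of -0.35 to 0.10), and for TNFRSF10A without 6 h (-0.32, in a range of -0.32 to 0.28). TMD8 minus K422 turned for RIPK1 with size factors (0.012), 5 CPM (0.0042), DESeq2 (0.012) and without 18 h (0.046, in a range of -0.051 to 0.046).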
